A study of Homo sapiens with 3 samples.

Results

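The replication-dependent histone genes examined here are the protein-coding genes on chromosome 6 of a RefSeq gene table (assembly GRCh38.p14) whose symbols are H1-1 to H1-6, or H2AC, H2BC, H3C or H4C followed by digits only. The rule found 55 genes among 20037 protein-coding genes placed on the same chromosomes as the peaks: 6 for H1, 12 for H2A, 15 for H2B, 10 for H3 and 12 for H4. Accessible chromatin was measured by ATAC-seq, in which the Tn5 transposase cuts and tags open DNA, in 1 library (replicate 2) of hCMEC/D3. hCMEC/D3 derives from the endothelium of human brain microvessels and was immortalized; per the labels it was grown to confluence on collagen and used at low passage, without any treatment, genotype or second cell type to compare. The 2 RNA libraries of the same line were not used here.

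Histones package DNA. Pairs of H2A, H2B, H3 and H4 form the core of the nucleosome, and the linker histone H1 binds the DNA where it enters and leaves that core. The replication-dependent copies are transcribed mainly in S phase, when newly copied DNA needs new nucleosomes, and their mRNAs end in a stem-loop in place of a poly(A) tail. They lie in dense clusters that gather in nuclear histone locus bodies around the coactivator NPAT, and many H2A and H2B genes stand head to head around a shared promoter. A few members are known for expression in the male germ line: H2AC1 and H2BC1 encode testis forms of H2A and H2B, and H1-6 encodes the testis linker histone H1t.

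The DNA before the start of some members is shown first because its short motifs differ between the histone types and are set beside the peaks below. The sequences come from the RefSeq promoter table (GRCh38.p14), which lists a start site for 50 of the 55 genes. Capitals mark only the motifs searched for the type of the gene, on either strand. These are the octamer core ATTTGCA in H2A and H2B genes, the H1 box AAACACA in H1 genes and the element GGTCC in H4 genes. The box CCAAT is marked in all but H4 genes, and the motif TATAAA in every type. The first 3 lie between the start sites of a head-to-head pair and run towards the start of the second gene named. They are the pair of highest pileup, a pair without the octamer core, and the pair without any peak.
H2BC4/H2AC6, chr6:26123927-26124171, plus strand: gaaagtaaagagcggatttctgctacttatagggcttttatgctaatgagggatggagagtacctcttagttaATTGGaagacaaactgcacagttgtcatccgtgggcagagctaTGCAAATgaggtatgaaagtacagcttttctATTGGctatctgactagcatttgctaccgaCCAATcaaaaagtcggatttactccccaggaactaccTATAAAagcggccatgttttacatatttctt
H2BC13/H2AC13, chr6:27807930-27808172, plus strand: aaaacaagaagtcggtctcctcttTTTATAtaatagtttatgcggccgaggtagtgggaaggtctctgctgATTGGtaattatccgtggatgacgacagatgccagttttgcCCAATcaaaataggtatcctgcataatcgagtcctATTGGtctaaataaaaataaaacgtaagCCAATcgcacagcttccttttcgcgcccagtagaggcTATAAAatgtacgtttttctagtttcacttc
H2AC1/H2BC1, chr6:25726563-25726776, plus strand: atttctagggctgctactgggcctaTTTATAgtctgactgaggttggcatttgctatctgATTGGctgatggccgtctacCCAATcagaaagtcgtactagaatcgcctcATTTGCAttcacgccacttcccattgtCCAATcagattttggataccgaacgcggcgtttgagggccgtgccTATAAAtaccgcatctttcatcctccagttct

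The next set gives the 150 bases before the start of single genes. H1-4, H4C2 and H3C10 had the highest pileup of their type among genes with a listed start. H4C9 and H3C7 had the lowest among genes with a peak. H1-6 and H4C7 had no peak.
H1-4, chr6:26156179-26156328, plus strand: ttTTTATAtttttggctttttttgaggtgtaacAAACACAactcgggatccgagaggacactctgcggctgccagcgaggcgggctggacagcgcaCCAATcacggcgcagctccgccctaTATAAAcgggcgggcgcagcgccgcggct
H1-6, chr6:26108136-26108285, minus strand: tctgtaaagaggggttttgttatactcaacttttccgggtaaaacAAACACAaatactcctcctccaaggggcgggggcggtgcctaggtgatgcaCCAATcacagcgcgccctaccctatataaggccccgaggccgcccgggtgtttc
H4C2, chr6:26027284-26027433, minus strand: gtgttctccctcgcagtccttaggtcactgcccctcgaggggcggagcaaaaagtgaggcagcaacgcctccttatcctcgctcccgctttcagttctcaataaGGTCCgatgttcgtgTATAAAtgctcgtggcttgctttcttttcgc
H4C9, chr6:27139132-27139281, plus strand: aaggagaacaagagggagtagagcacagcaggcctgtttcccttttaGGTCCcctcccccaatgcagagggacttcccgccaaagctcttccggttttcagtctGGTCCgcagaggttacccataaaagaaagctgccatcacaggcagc
H4C7, chr6:26246997-26247146, minus strand: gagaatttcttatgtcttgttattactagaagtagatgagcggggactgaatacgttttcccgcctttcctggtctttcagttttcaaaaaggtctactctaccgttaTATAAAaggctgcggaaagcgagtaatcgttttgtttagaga
H3C10, chr6:27809901-27810050, plus strand: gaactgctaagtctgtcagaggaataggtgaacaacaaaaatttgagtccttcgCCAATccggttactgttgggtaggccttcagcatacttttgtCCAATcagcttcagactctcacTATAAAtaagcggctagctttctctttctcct
H3C7, chr6:26250636-26250785, minus strand: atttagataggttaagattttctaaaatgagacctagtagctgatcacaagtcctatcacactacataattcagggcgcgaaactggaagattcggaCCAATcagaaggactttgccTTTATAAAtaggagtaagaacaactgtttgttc

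The peak list held 106415 broad peaks, called from 22188172 tags that remained of 31532245. Each of the 10 endothelial marker genes looked up, among them CDH5, PECAM1 and TIE1, had a peak within the gene or 1 kb around it, as did 7 of 10 markers of other cells, with none at AQP4, AIF1 and KCNJ8. By the same rule 83.7% of all protein-coding genes had a peak, so these counts say little about the cell type. All values below come from 1 library, so no difference between genes was tested. Wilson intervals (95%) cover counting over genes only, and neighbouring genes that share a peak are not independent. Many histone genes of 1 type are close copies, though not all, so a read of their coding part may match more than 1 gene. How the authors treated such reads is not given in the sources used here.

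Nearly all members lay in accessible chromatin, and the exceptions included the 3 germ-line genes. A peak within the gene or 1 kb of it was found for 51 of the 55 members (92.7%, Wilson interval 82.7% to 97.1%). Over all protein-coding genes the share was 83.7%, which lies inside that interval. With only peaks of at least 4-fold over their surroundings, the order was reversed, with 23.6% of members and 73.6% of all protein-coding genes. Most members are short genes, so the share among short genes is given as well. Any role of gene length in these shares was not tested. Of the 528 protein-coding genes of at most 1000 bp, 132 (25%) had a peak, and 46 of the 50 members in that size class did. Without the members, the share among such short genes was 18.0% (86 of 478). A listed start site itself lay inside a peak for 46 of 50 members (92.0%), compared with 68.7% of the 15843 protein-coding genes with a listed start.

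The 4 members without a peak were H2AC1, H2BC1, H1-6 and H4C7. H4C7 encodes a divergent H4. The nearest peak was 5283 bp from H2AC1 and 5997 bp from H2BC1, with a pileup (the number of extended tags that the caller reports for a peak) of 18.4. It was 2627 bp from H1-6, where it was the peak over the H4 gene H4C3, and 2065 bp from H4C7. H1-6 and H4C7 thus lay among accessible histone genes, whereas the H2AC1 and H2BC1 pair stood apart from the rest. The lowest pileup in the list was 8.0. Peaks were called against the signal around them, so near accessible histone genes a pileup above 8.0 may also have gone uncalled. An absent peak thus means only that none was called at this depth and setting.

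Split where neighbours lay over 200 kb apart, the members formed 4 sub-clusters. The first held only H2AC1 and H2BC1 (chr6:25726063-25727345) and had no peak. The second, from H1-1 to H4C8 (chr6:26017032-26285534), held 32 genes of every type, and 30 had a peak (93.8%, Wilson interval 79.9% to 98.3%). The third, from H2BC11 to H2AC12 (chr6:27132316-27147562), held 5 genes, and the fourth, from H2BC13 to H2BC17 (chr6:27807479-27893891), held 16. Every gene of these last 2 sub-clusters had a peak, with Wilson intervals from 56.6% and from 80.6%. Peaks covered 16.1% of the second sub-cluster, 26.4% of the third and 17.7% of the fourth, against 2.10% of chromosome 6 up to its last peak.

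**Figure D1:**
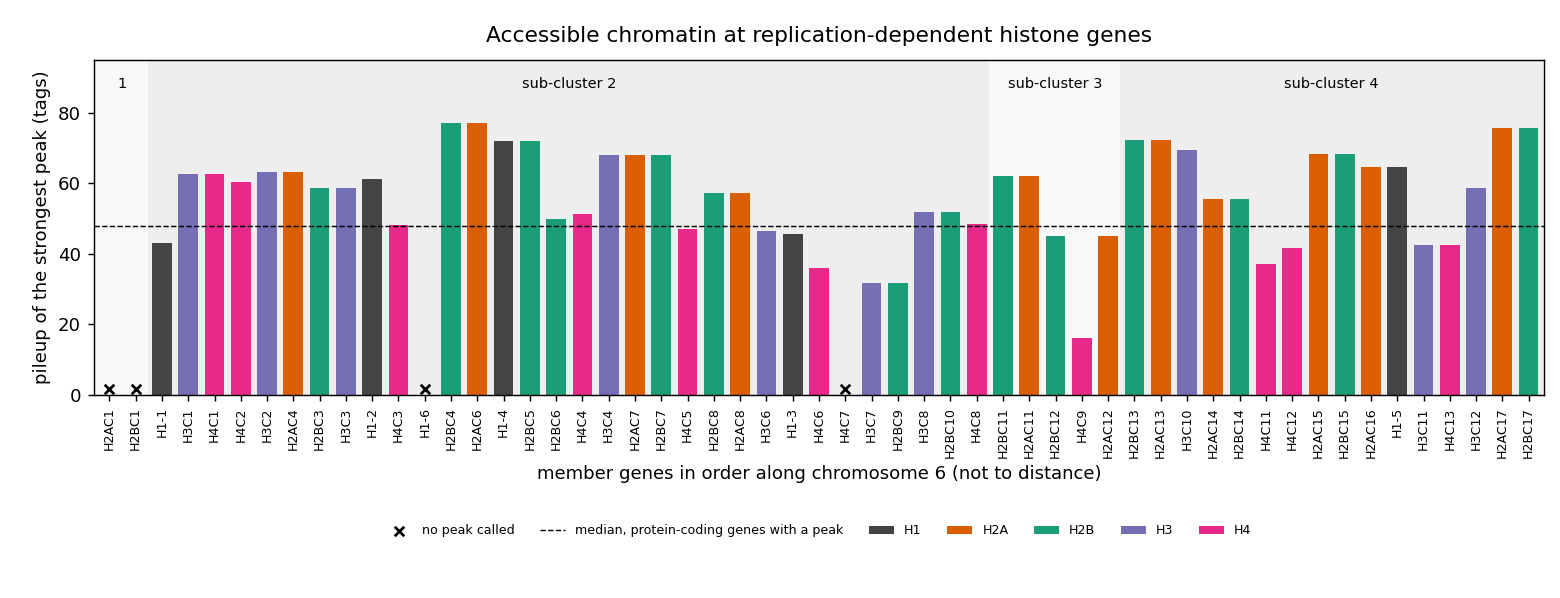
Pileup (tags) of the strongest peak within each of the 55 genes or 1 kb of it, in order along chromosome 6. Bars are coloured by histone type, crosses mark the 4 genes without a peak, shading marks the 4 sub-clusters and the dashed line is the median over protein-coding genes with a peak (47.8). The bars run from 16.2 at H4C9 to 77.1 at H2BC4 and H2AC6.

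The median pileup, taking the strongest peak of each gene, was 57.9 in the second sub-cluster, 44.9 in the third and 64.7 in the fourth. The range was 31.6 to 77.1 in the second and 37.2 to 75.5 in the fourth, so these largely overlapped. In the third, H4C9 at 16.2 and the pair H2BC11 and H2AC11 at 62.1 were the extremes. In the fourth, H4C11 was lowest and the pair H2AC17 and H2BC17 highest. H3C7 and H2BC9, which share their peaks, were lowest in the second.

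The linker histone genes had peaks that began close before the start site and ran far into and past the gene. The strongest peak had a pileup of 72.1 at H1-4, 64.7 at H1-5, 61.1 at H1-2, 45.5 at H1-3 and 43.1 at H1-1. H1-1 to H1-5 encode the somatic linker histones. These peaks reached only 117 to 165 bp upstream of the start in all 5 genes. Downstream they reached 2591 bp at H1-5, 2555 bp at H1-4, 1808 bp at H1-2 and 1551 bp at H1-3, past the end of each gene. H1-1 differed, with a peak of 288 bp that ended 136 bp into the gene and covered 18.1% of it. The peaks of H1-4 and H1-5 also took in a neighbour, H2BC5 and H2AC16. Over the 10887 protein-coding genes with a start in a peak, the median reach was 475 bp upstream (quartiles 309 and 686) and 550 bp downstream (349 and 819), so the upstream reach of all 5 H1 genes lay below the lower quartile.

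Genes for H2A and H2B were mostly arranged as pairs with their starts facing, and 1 peak lay over both starts of nearly every pair. The promoter table gave 9 such pairs of neighbours, with 193 to 247 bases between the starts. In 8 of them a single peak covered both starts and the DNA between, and the exception was the germ-line pair H2AC1 and H2BC1. The 8 peaks were 837 to 2591 bp long, more than the distance between the starts. A peak over 1 start would thus mostly cover the other as well, and the count says little about the pairing itself. The pileup of the 8 peaks ran from 55.5 at H2AC14 and H2BC14 to 77.1 at H2BC4 and H2AC6, with a median of 68.1. The others were 75.5 for H2AC17 and H2BC17, 72.3 for H2BC13 and H2AC13, 68.2 for H2AC15 and H2BC15, and 68.0 for H2AC7 and H2BC7. The lower ones included 62.1 for H2BC11 and H2AC11 and 57.2 for H2BC8 and H2AC8. The 9 H2A and H2B genes outside these pairs had a median of 52.0, taken over genes, whereas the median of the pairs is over peaks. Among these genes, H2AC12 lies beside H2BC12 under 1 peak (pileup 44.9, the lowest of H2A), which thus enters the 52.0 for both. The table lists no start for H2AC12, so they were not counted as a pair.

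By type, a peak was found for 11 of 12 H2A genes (91.7%, Wilson interval 64.6% to 98.5%) and for 14 of 15 H2B genes (93.3%, 70.2% to 98.8%). Among H2B genes the pileup ran from 31.6 at H2BC9 to 77.1 at H2BC4, and among H2A genes from 44.9 to 77.1 at H2AC6. H2BC4, H2BC5 and H2BC12 are annotated with longer transcripts that take the gene to between 8566 and 13229 bp, so their windows are wider than those of the other members. For H2BC12 this wider window also took in the peak of H4C9.

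All 10 H3 genes had a peak (Wilson interval from 72.2%). The pileup was highest at H3C10, with 69.6, and lowest at H3C7, with 31.6, and the median was 58.5. For H3C7 and H3C8 the strongest peak within 1 kb does not touch the gene and lies over a neighbour, H2BC9 and H2BC10. The peak over the start of H3C7 itself had a pileup of 27.9, and that over the start of H3C8 had 42.1, against 52.0 for its strongest. H3C10 carried a short peak of 465 bp, and H3C3 lay under the widest member peak. H3C6 stood out by the highest fold of any member, 6.09, at a pileup of 46.5. The fold is the peak caller's enrichment over a local background, which it estimates from the same library within 10000 bp. The local background given here is the pileup divided by the fold, which only approximates the caller's own value. The local background at H3C6 was 7.63 tags, compared with 26.5 tags under the peak shared by H3C4, H2AC7 and H2BC7, whose fold was 2.56. A second start listed for H3C6 was not in a peak.

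Genes for H4 had peaks of lower pileup than the other types and of like length. A peak was found for 11 of 12 (91.7%, Wilson interval 64.6% to 98.5%), with a median pileup of 47.0, compared with 58.5 for H3, 60.4 for H2B, 61.1 for H1 and 64.7 for H2A. Of the 11 H4 genes, 9 lay below the median of all members with a peak (58.6). The 2 above it were H4C1 at 62.6, which shares its peak with H3C1, and H4C2 at 60.3. The lowest was H4C9 at 16.2, with a peak of 1161 bp and a fold of 4.33. The median fold of H4 genes, 4.33, was above that of the other types, which ran from 3.10 to 3.34, and their median local background was 10.5 tags, against 16.1 to 20.0 tags. In all 9 H4 genes with a start in a peak, the peak reached further downstream (752 to 1804 bp) than upstream (156 to 517 bp), and in all 9 it covered the gene to its end. Such a longer downstream side was found for 55.6% of protein-coding genes with a start in a peak and for 28 of 46 members.

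**Figure D2:**
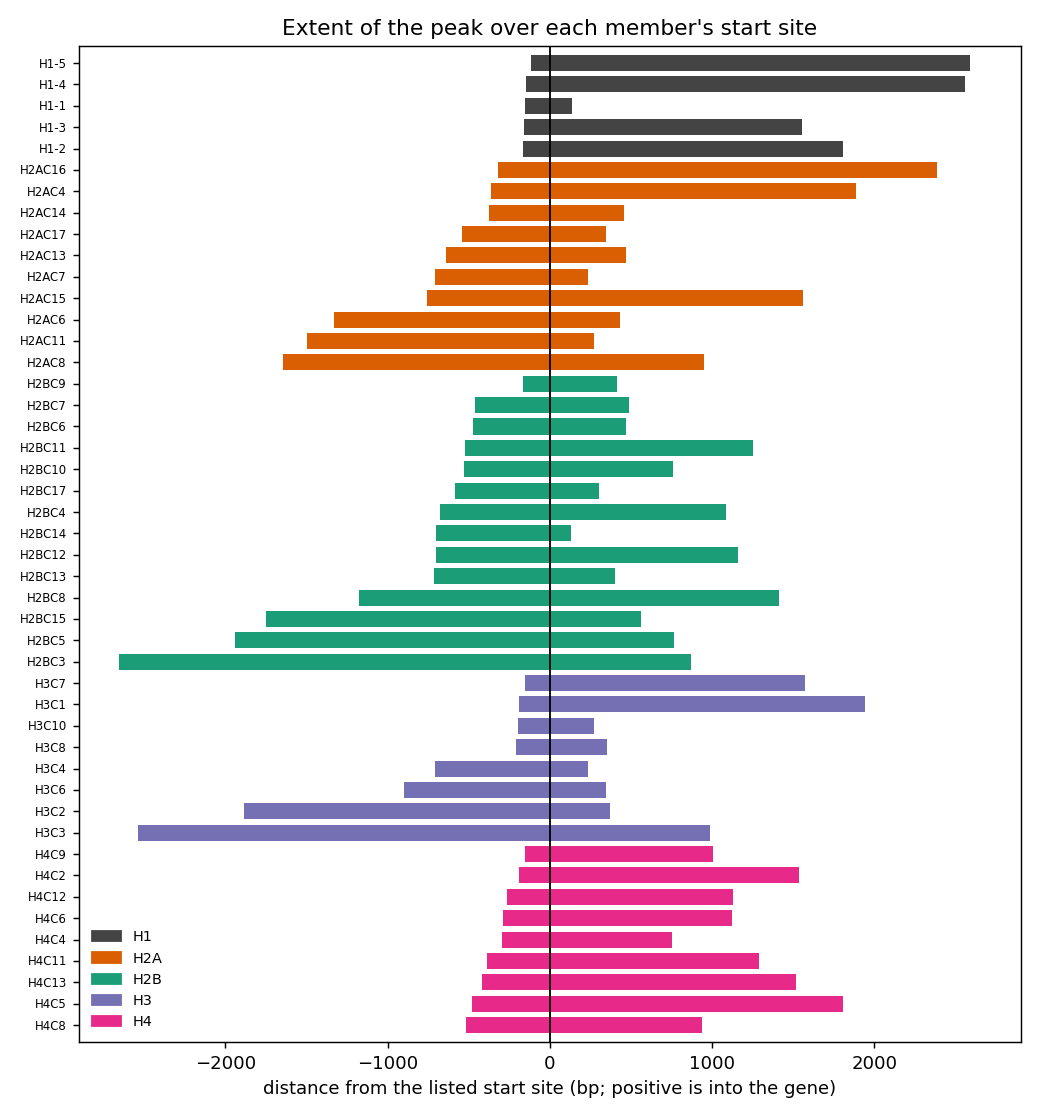
Extent of the peak over the start site of 46 members, in bp from the listed start, with the direction of transcription to the right and colours for histone types. Bars of H1 genes begin 117 to 165 bp before the start and run on into the gene. All 9 bars of H4 genes are longer after the start than before it, while bars of H2A and H2B genes extend to either side.

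Many genes of different types shared 1 peak. The 51 genes with a peak were reached by 44 distinct peaks, of which 18 reached 2 members and 1 reached 3. In all, 36 members lay on a shared peak: 11 of 11 H2A genes with a peak, 13 of 14 H2B, 7 of 10 H3, 2 of 5 H1 and 3 of 11 H4. The count was 32 with the gene extent alone or 500 bp on each side, and 40 with 2500 bp. How often protein-coding genes in general share a peak by this rule was not counted, so the 36 has no background beside it. The peak reaching 3 members (chr6:26199057-26200002, pileup 68.0) lay at H3C4, H2AC7 and H2BC7, where a start listed for H3C4 coincides with that of H2AC7. Shared peaks had a median length of 1775 bp and a median pileup of 62.1, compared with 944 bp and 47.0 for peaks reaching 1 member. Peaks reach more genes the longer they are, so these medians describe the sharing and do not test it.

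The widest member peak, of 3528 bp (chr6:26042844-26046371, pileup 58.6, fold 2.70), ran from H2BC3 to H3C3 and was the second longest of the whole list. Next came 2709 bp at H2AC16 and H1-5, 2703 bp at H1-4 and H2BC5, 2591 bp at H2BC8 and H2AC8, and 2315 bp at H2AC15 and H2BC15. Each of these 5 peaks reached 2 members. Of the 44 member peaks, 8 were at least 2000 bp long (18.2%), compared with 641 of all 106415 peaks (0.602%). The median length over the whole list was 452 bp. That list is not limited to peaks at genes, so it is not a like set. Lengths of peaks at protein-coding genes are given next.

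Set beside all protein-coding genes with a peak, the strongest peaks of the members were long and of high pileup but low in fold. The median length was 1715 bp, against 949 bp over the 16775 genes, and 38 of the 51 members were above that median. The median pileup was 58.6 tags, against 47.8, with 37 members above. Members that share a peak enter these values more than once. Over the 44 distinct member peaks, weaker ones included, the medians were 1343.5 bp and 51.7 tags. The values over all genes were not recounted in this way. The median fold was 3.23, against 5.42, and 50 of the 51 members were below, the exception being H3C6. The median local background of the members was 17.2 tags, against 8.39, with 48 members above. With peaks of at least 4-fold alone, 13 of the 55 members (23.6%) had one, against 73.6% of all protein-coding genes. Here and above, the local background was computed as the pileup divided by the fold, so it is not a separate measurement. By this definition a high pileup with a low fold gives a high local background. Why the fold was low was not tested.

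**Figure D3:**
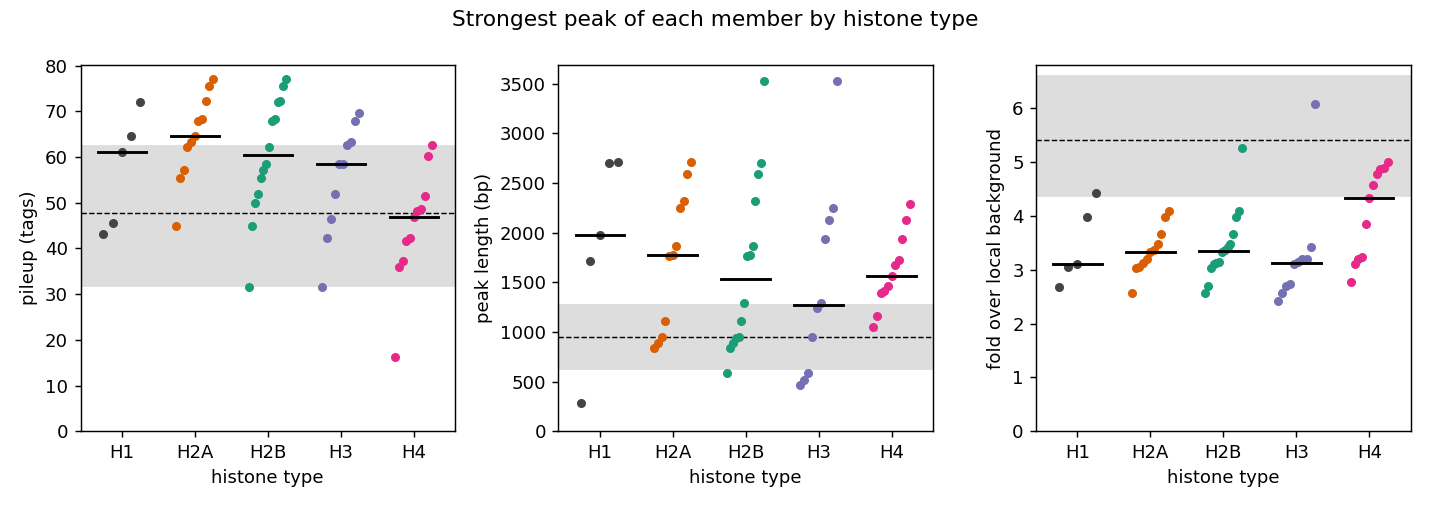
Pileup (tags), length (bp) and fold over the local background of the strongest peak of each of the 51 members with a peak, as points by histone type, with the type's median as a black bar. The grey band and dashed line are the quartiles and the median over 16775 protein-coding genes with a peak. Fold is below that median for 50 members, while length and pileup are above it for 38 and 37.

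The promoter windows (250 bases before to 50 after each listed start, 1 per gene) held short motifs that differed between the types. The octamer core ATTTGCA, which POU factors such as POU2F1 bind, was found in 12 of 15 H2B and 9 of 11 H2A windows. It was found in 2 of 8 H3 windows, at H3C3 and at H3C4, whose window is that of H2AC7, in no H1 or H4 window, and in 4.20% of all 35116 windows of the table. Because facing genes share the DNA between them, a single match can count for both genes of a pair. The H2B windows without it were H2BC5, H2BC13 and H2BC15, whose pileups of 72.1, 72.3 and 68.2 were above the H2B median.

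The H1 box AAACACA was found in 6 of 6 H1 windows and in no other member window, against 5.64% of all windows. On the strand of the gene it began 117 to 119 bases before the start in H1-2, H1-3, H1-4 and H1-5. Over all 35116 windows, 14 (0.0399%) have it there, but the range was taken from these 4 genes, which are among the windows counted. In H1-6 it began closer to the start. In those first 4 genes this match lay inside the peak, and in H1-5 it began at the peak's upstream edge. H1-6, printed above, carries the same box without a peak, and in H1-1 the match lay on the other strand and outside the peak.

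The element GGTCC, part of the H4 promoter site bound by HINFP, was found in 9 of 10 H4 windows, against 46.3% of all windows, as its few letters allow. Its place was less common. In those 9 H4 genes it began 44 to 47 bases before the start on the strand of the gene, which was so in 0.487% of all windows, and in all 9 it lay inside the peak. The H4 window without these letters was that of H4C7, the H4 gene without a peak. The places of this element and of the H1 box were read off these members after the matches were seen, and the members are among all windows.

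The box CCAAT, which NF-Y binds, was present in every H1, H2A, H2B and H3 window, in 3 of 10 H4 windows and in 34.6% of all windows. The motif TATAAA was present in 33 of 50 member windows, against 11.5%. All motifs were searched on both strands. Among the members, matches of different motifs overlapped only between the H4 element and the CCAAT box, in H2BC9, H3C2, H3C3 and H3C7, so in these 4 H2B and H3 windows the H4 letters share bases with that box. The pair H2AC1 and H2BC1 held the octamer core, CCAAT and the TATA motif, as printed above, and had no peak. Member windows were low in G and C, with a median of 42.3%, against 58.7% over all windows, and the 4 windows without a peak (40.3% to 48.7%) lay within the range of the other members (36.3% to 58.0%). A match describes letters only, and a missing match says only that these letters are not in this window.

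**Figure D4:**
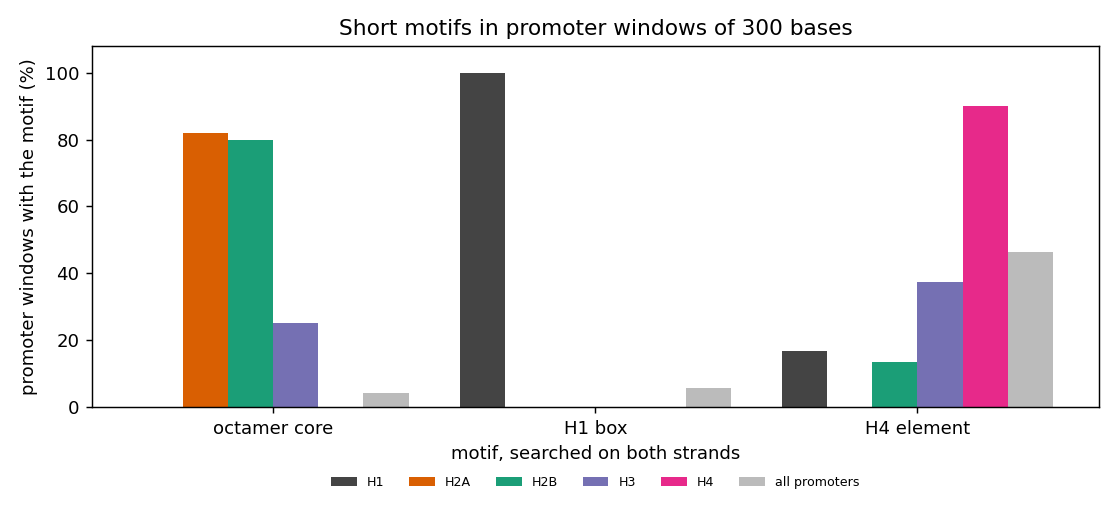
Share (%) of promoter windows of 300 bases that hold each of 3 motifs on either strand, by histone type and over all 35116 windows of the table. The octamer core stands at 80.0% in H2B and 81.8% in H2A, the H1 box at 100% in H1, and the H4 element at 90.0% in H4.

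Histone genes elsewhere served for comparison. Of 16 replication-dependent histone genes on other chromosomes, 14 had a peak, with a median pileup of 66.1, a median length of 3306 bp and a median fold of 2.71, lower than the 3.23 of the members. These medians are over genes, so a peak reaching several genes enters several times. The peak of 3306 bp, for example, enters for H2BC21, H2AC20 and H2AC21. Most lie on chromosome 1, where a peak of 3453 bp (chr1:149839915-149843367) reached H3C14 and H2AC18 and one of 3427 bp (chr1:149850415-149853841) reached H4C15, H2AC19 and H3C15. These copies are nearly identical to each other, so their reads cannot be told apart with certainty. The genes without a peak were H3-4, which encodes a testis H3, and H2BC12L. All 12 replication-independent histone genes, whose variants are made outside S phase as well, had a peak, with pileups from 12.7 at MACROH2A2 to 93.9 at H2AZ2 and a median fold of 4.46.

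Regulators of histone genes were also looked up. All 16 had a peak, with a median pileup of 53.4 and a median fold of 6.02. The highest was CDK2, the kinase that activates NPAT, with 112.6, followed by NPAT with 104.2, and the lowest was CPSF2, of the machinery that cuts histone mRNA, with 28.5. Among the 20 other protein-coding genes between the first and the last member, such as the butyrophilin gene BTN2A1 and the transcription factor gene ZNF184, 17 had a peak (85.0%). SLC17A2, SLC17A4 and PRSS16 had none.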

How the data were processed

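Per the file headers, the authors called broad peaks with MACS 2.2.7.1 in single-end mode on 1 ATAC library. No control was used. Each tag was moved by -100 bp and lengthened to 200 bp, 1 tag was kept at a position, the q cutoffs were 0.05 (strong) and 0.1 (broad), and the genome size was set to 1870000000, the caller's mouse preset. The deposited file gives each peak's pileup signal, its fold enrichment ratio and its −log10 p-value and q-value. These are the authors' values, used only within this list. The submitters' processing notes name GRCh38 and mm10, and Bowtie2, SAMtools 1.13 and Picard, without a role. Without an offset, 49.6% of RefSeq start sites (GRCh38.p14) lay in a peak, against 2.94% to 3.53% with offsets of 5 to 50 kb, so peaks were placed on this assembly. Neither the RNA tables nor the references pair transcripts with genes, so the RNA libraries were not used.

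A gene had a peak where at least 1 bp of one lay within the gene or 1 kb, and took the values of its peak of highest pileup. Local background is pileup divided by fold. Members and lists were chosen with earlier results of these data known. Values are given for members without a peak, the highest and lowest pileup of each type and sub-cluster, all H1 genes, genes sharing a peak with at least 2 others and the 5 widest member peaks; genes outside this rule were chosen after their values were seen. Python 3.11.15, pandas 2.3.3 and SciPy 1.17.1 were used, and the overlap step was tested on simulated peaks. Alternatives were the window, the overlap, filters on q, fold and pileup, the gap between sub-clusters and the background genes.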

Additional observations from a re-analysis of the deposited data

How the results depend on the processing

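Of 100 alternative values, 85 stayed near the reported one (inside its 95% interval, or within 1.5-fold for a count) and 15 moved. The same 51 of 55 members had a peak with the gene extent alone, with 500 bp, with an overlap of 200 bp and with −log10 q of at least 5. The pileup filter, added after seeing the data, kept as many peaks as reach a fold of 4 and lost only H4C9 (50 of 55). With 2500 bp on each side H4C7 gained a peak, which took the H4 share to 100%. With a fold of at least 4, the share was 23.6% over all members, 16.7% for H1, 8.33% for H2A, 26.7% for H2B, 10% for H3, 50% for H4, 25% in the second sub-cluster, 80% in the third (4 of 5) and 6.25% in the fourth, and 4 members shared a peak; this filter leaves fewer peaks. Splitting at 500 kb joined the first sub-cluster to the second, with 88.2%. The background was 66.9% for genes no longer than the longest member, 85.0% for neighbours and, added after seeing the data, 25% for genes of at most 1000 bp. Counting each distinct peak once gave a median pileup of 51.7. No paired analysis was possible because the ATAC group holds 1 library.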

Other observations

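Histone pseudogenes lie among the members, and most of those with a peak shared it with a member. Of 13 histone pseudogenes in or within 50 kb of the span of the members, 9 had a peak within the gene or 1 kb of it, and for 7 of these every such peak also reached a member. H2AC5P, for example, had the 3528 bp peak of H2BC3 and H3C3. The exceptions were H3C9P, with a peak of its own of 1099 bp (chr6:26322042-26323140, pileup 50.2, fold 5.30), and H2BP5, with one of 835 bp (pileup 22.5, fold 6.71). H2BC2P, H2AC2P, H2AC3P and H3C5P had none. The span also holds 98 transfer RNA genes, and 2 of the 44 member peaks reached within 1 kb of one.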
